A study of Mus musculus with 6 samples.

Results

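Glycosyltransferases and carbohydrate sulfotransferases of the Golgi apparatus build the sugar chains of glycoproteins, glycolipids and proteoglycans, and their messenger RNAs were examined in CD11c+ spleen cells of Atg16L1 hypomorphic and wild-type mice. The members were all genes measured by a probe set naming a single gene whose symbol begins as those of the B3galt, B3galnt, B3gnt, B4galt, B4galnt, Galnt, Gcnt, Mgat, Fut, St3gal, St6gal, St6galnac, St8sia, Ext, Extl, Ndst, Hs2st, Hs3st, Hs6st and Chst families. This rule found 94 genes of 12393 on the array. Where a gene had several probe sets, which was so for 40 members, it was represented by a single probe set, chosen by its mean value across the 6 arrays (the highest was taken). That mean is the only measured value the choice used, so levels are given as description. The difference between the genotypes entered neither the symbol rule nor the choice of probe sets. The families themselves were chosen with earlier results of these data known.

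The enzymes act in sequence along the Golgi stack. Each transfers a sugar from a nucleotide donor, or a sulfate group from the donor PAPS, to a growing chain. Members of the Galnt family start mucin-type O-glycans, Mgat and Gcnt enzymes branch N-glycans and O-glycans, and B4galt and B3gnt enzymes extend the branches. Fucosyltransferases and sialyltransferases cap them, and the caps are ligands of selectins and Siglec receptors. Heparan sulfate is polymerized by EXT proteins and then modified by NDST, HS2ST, HS3ST and HS6ST sulfotransferases, and the resulting chains bind chemokines and growth factors on the cell surface.

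The hypomorph group consisted of 3 arrays from mice with a hypomorphic Atg16L1 allele, one of reduced function, and the wild-type group of 3 arrays from C57BL/6J mice. Both groups shared the C57BL/6J background, were untreated and 8 weeks of age, and their spleen cells were selected with magnetic beads for CD11c, the integrin used to isolate dendritic cells. Expression was read on Affymetrix MOE430A arrays and is given as the deposited log2 value. The labels describe the allele no further. They do not tie arrays to separate mice, and p-values therefore speak only of the spread among the arrays, which may be technical. The titles of wild-type replicates 1 and 3 differ from those of the other arrays. That of replicate 1 begins with another number, whose meaning the labels do not give, and that of replicate 3 names another version of the array. A gene is said to have risen or fallen where limma, fitted over all 12393 genes, gave an adjusted p (Benjamini-Hochberg) under 0.05, and changes are hypomorph minus wild type on the log2 scale. In RNA of a mixed population, fewer cells of a type and less RNA per cell cannot be told apart.

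Atg16l1 was at 6.13, 5.84 and 6.11 in hypomorph arrays, against 7.05, 7.11 and 7.04 in wild-type arrays, and fell 2.05-fold (adjusted p = 0.00163 by limma). The groups also differed outside the genes. Poly-A spike-ins, added before labelling, averaged 7.58 to 7.90 in hypomorph arrays and 8.95 to 9.96 in wild-type arrays (two-sided exact permutation p = 0.1, the smallest that 3 against 3 arrays can give). Hybridization controls averaged 10.29 to 10.40 in hypomorph arrays and 11.08 to 11.65 in wild-type arrays. The 3' minus 5' difference of beta-actin, a sign of RNA quality, was 0.693 to 0.770 in hypomorph arrays and 0.940 to 1.02 in wild-type arrays on the log2 scale (exact p = 0.1 for both measures). Macrophage markers of the red pulp and marginal zone were higher in hypomorph arrays, where 18 of 19 rose and 0 fell, with a summed linear signal of 59980 to 64167, against 15431 to 23402 in wild-type arrays. Stromal markers were lower, with 0 of 9 risen, 5 fallen and summed signals of 1105 to 1556 in hypomorph arrays, against 2937 to 7127 in wild-type arrays. Of 9 B cell markers 0 rose and 5 fell (sums of 4105 to 5784 in hypomorph and 6553 to 8567 in wild-type arrays), and of 9 endothelial markers 0 rose and 3 fell (1024 to 1161 and 1238 to 2761). Of 11 conventional dendritic cell markers 2 rose and 2 fell, with summed signals of 30330 to 32170 in hypomorph arrays and 28426 to 29466 in wild-type arrays. Among these markers Itgax, which encodes CD11c, went the other way from the sum, at 9.94 ± 0.07 (SD, n = 3) in hypomorph arrays and 10.32 ± 0.13 in wild-type arrays. No other marker list, for plasmacytoid dendritic cells, T cells, NK cells, neutrophils, erythroid cells or platelets, had more than 2 members called. The part of these differences in the changes below was not tested.

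Of the 94 members 13 rose and 9 fell in the hypomorph, and 72 did not pass. This is 23.4% of the members, where 18.2% of all genes passed. The risen members were 13.8% where 9.76% of all genes rose, and the fallen members were 9.57% where 8.47% fell. Nothing is read from shares this near the background. The median change of the members was -0.030, beside -0.053 for all genes. After centring each array on its median, 16 members rose and 7 fell. At least 1.5-fold changes were called for 9 risen and 4 fallen members, 13.8% of the members where such changes made up 7.89% of all genes. The genotypes were fully separated, with no overlap of array values, in 45 members, or 47.9%, where this held for 41% of all genes. All 22 called members were among these 45. With the spike-in signal as a covariate, limma called 0 members. That signal separated the genotypes fully, and with it the median gene's standard error grew 2.96 times. Genotype and spike-in signal therefore cannot be told apart, and the lack of calls decides nothing. At an unadjusted p under 0.05 this fit had 9 members, or 9.57%, where 9.27% of all genes passed. The 22 changes kept their sign, but 7 were smaller and 5 larger by over 1.5 times. The log2 difference in that fit was 0.79 for Galnt3, 0.092 for B4galt1, -0.065 for St3gal2, -0.18 for B3galnt2, -0.092 for B3gnt8, 2.48 for B3galnt1 and -1.84 for B3gnt5, none of them called.

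**Figure D1:**
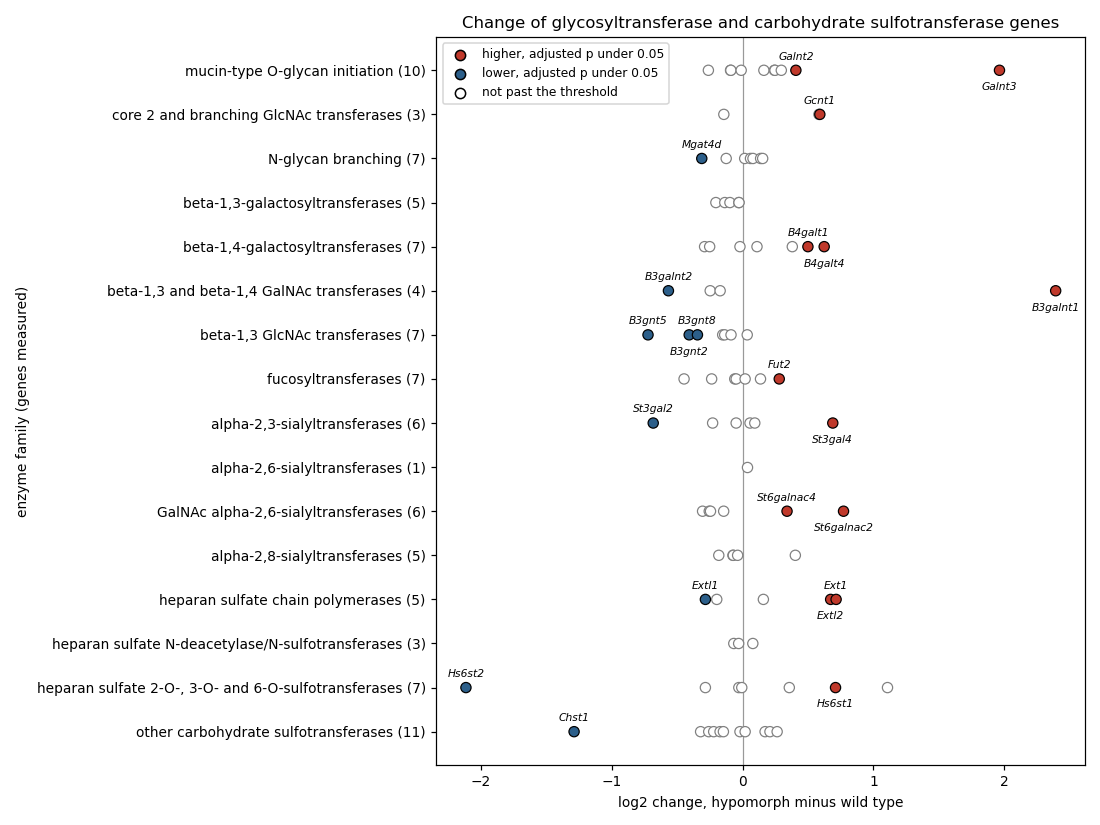
Log2 change (hypomorph minus wild type, x axis) of the 94 members, arranged by enzyme family on the y axis, each point being a gene. Red points rose and blue points fell at an adjusted p under 0.05, open points did not pass, and B3galnt1 at 2.39 and Hs6st2 at -2.12 mark the ends of the range.

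Calls that held whichever array was left out were those of B3galnt1, Galnt3, Hs6st1, St3gal4 and Chst1. RefSeq promoter windows, 250 bases before to 50 after the annotated start, were available for 71 members, and those of the 3 genes of this group with the largest changes are shown because these calls did not depend on any 1 array. Coordinates are those of the GRCm38.p6 build, and each window is printed 5' to 3' on the strand of its gene. Capitals mark the sequence GAGGAA, which can be bound by the ETS factor PU.1, a lineage factor of macrophages and dendritic cells. No other ETS sequence was searched, so unmarked stretches may hold shorter or different ETS sites.
B3galnt1, chr3:69598911-69599210, minus strand: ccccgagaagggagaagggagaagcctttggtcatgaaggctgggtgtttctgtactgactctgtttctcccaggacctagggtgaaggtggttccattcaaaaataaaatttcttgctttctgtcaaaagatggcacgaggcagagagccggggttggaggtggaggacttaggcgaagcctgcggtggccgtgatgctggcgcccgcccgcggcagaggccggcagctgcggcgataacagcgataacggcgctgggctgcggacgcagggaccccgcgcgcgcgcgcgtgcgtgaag
Galnt3, chr2:66124744-66125043, minus strand: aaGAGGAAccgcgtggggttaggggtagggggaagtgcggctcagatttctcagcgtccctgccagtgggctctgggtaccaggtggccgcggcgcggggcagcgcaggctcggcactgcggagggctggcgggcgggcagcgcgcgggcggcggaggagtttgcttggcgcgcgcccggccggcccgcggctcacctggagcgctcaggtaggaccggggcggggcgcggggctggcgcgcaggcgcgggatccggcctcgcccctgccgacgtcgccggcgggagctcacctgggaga
Chst1, chr2:92600867-92601166, plus strand: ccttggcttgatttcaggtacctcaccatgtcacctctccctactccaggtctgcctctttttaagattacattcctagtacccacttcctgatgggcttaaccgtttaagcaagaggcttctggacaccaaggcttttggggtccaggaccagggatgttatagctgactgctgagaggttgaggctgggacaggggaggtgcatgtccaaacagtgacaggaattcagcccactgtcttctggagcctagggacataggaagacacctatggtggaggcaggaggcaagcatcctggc

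The window of B3galnt1 held 61.3% G and C, that of Galnt3 76.7% and that of Chst1 52.7%, where the median of all windows was 52.7% and that of the members' windows 61.5%. 4 motifs were searched on both strands, namely GAGGAA, the E-box CACGTG, the AP-1 sequence TGANTCA and the heat shock element core GAANNTTC. Galnt3 had 1 match to GAGGAA and none to the others, and B3galnt1 and Chst1 had no match to any of the 4. GAGGAA occurred in 5 of the 20 windows of called members, or 25%, in 33.7% of the members' 98 windows and in 28.3% of all 32851 windows. CACGTG was in 1 of the 20 windows (5%; 7.15% of all windows), GAANNTTC in 2 (10%; 7.86%) and TGANTCA in 0 (7.81%). No matches of different motifs overlapped in the printed windows.

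Among the 10 Galnt and 3 Gcnt genes, for enzymes that start and branch O-glycans, 3 rose and 0 fell. The background for family counts, here and below, is the 9.76% of all genes that rose and the 8.47% that fell. With so few genes in each family, no direction of a family is read from these counts. Galnt3, a GalNAc transferase that starts these chains and is known for protecting the hormone FGF23 from cleavage, was at 9.15, 9.09 and 9.30 in hypomorph arrays, against 6.67, 7.53 and 7.45 in wild-type arrays. The lowest hypomorph array stood well above the highest wild-type array, and the gene rose 3.90-fold (log2 change 1.96, SE 0.22, adjusted p = 0.00283 by limma). Galnt2, a widely expressed member of the same family, rose 1.33-fold, with 6.97, 6.96 and 7.02 in hypomorph arrays and 6.52, 6.69 and 6.52 in wild-type arrays. The other 8 of the 10 Galnt genes did not pass, with changes from -0.26 to 0.30. Gcnt1, which makes the core 2 branch carried by selectin ligands, rose 1.51-fold, with 5.61, 5.88 and 5.58 in hypomorph arrays and 5.05, 5.25 and 4.99 in wild-type arrays. Its paralog Gcnt2, which makes I-antigen branches, was 0.58 higher without passing (adjusted p = 0.0589). The call of Galnt2 was lost without any 1 hypomorph array (highest adjusted p = 0.0805), and that of Gcnt1 without hypomorph replicate 2 (adjusted p = 0.0555).

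Of the 7 N-glycan branching genes of the Mgat family 0 rose and 1 fell. Of these, 4 were dim (Mgat3, Mgat4c, Mgat4d and Mgat5), a range in which 3.62% of all genes were called. The brighter Mgat1, Mgat2 and Mgat4b had log2 differences of -0.13, 0.15 and 0.079 and did not pass. The fallen gene was Mgat4d, known in mouse testis as an inhibitor of MGAT1, at 3.18, 3.14 and 2.96 in hypomorph arrays and 3.40, 3.37 and 3.45 in wild-type arrays. Its level lies below 3.92, the lower quartile of all genes, in all arrays, and its adjusted p of 0.0462 was the nearest to the threshold among called members. The call was lost without any 1 of the 6 arrays (highest adjusted p = 0.155).

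Galactosyltransferases extend the branches. Of the 7 beta-1,4-galactosyltransferase genes 2 rose and 0 fell, and of the 5 beta-1,3-galactosyltransferase genes none was called (limma; all 5 also had an unadjusted p over 0.05). B4galt1, the main enzyme that adds galactose to N-glycans, was at 8.35, 8.30 and 8.30 in hypomorph arrays and 7.61, 7.94 and 7.91 in wild-type arrays, a 1.41-fold rise (adjusted p = 0.0207). B4galt4 rose 1.54-fold, with 6.52, 6.26 and 6.59 in hypomorph arrays and 5.83, 6.03 and 5.64 in wild-type arrays (adjusted p = 0.0207). B4galt3 was the member just outside the threshold, at 7.29 ± 0.05 in hypomorph arrays and 7.58 ± 0.10 in wild-type arrays (SD, n = 3 each; adjusted p = 0.0502). In the beta-1,3 family the smallest p belonged to B3galt1, with 3.06 ± 0.12 in hypomorph arrays and 3.27 ± 0.12 in wild-type arrays (change -0.20, adjusted p = 0.199 by limma). Of the 5 genes of that family 3 were dim, B3galt1 among them. The calls of B4galt1 without any 1 hypomorph array and of B4galt4 without hypomorph replicate 1 or 3 were lost (highest adjusted p = 0.0789 and 0.0853).

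Genes for beta-linked GalNAc transfer held the largest rise. B3galnt1 encodes globoside synthase, which adds N-acetylgalactosamine to the glycolipid Gb3 to make globoside. It was at 7.18, 7.17 and 7.17 in hypomorph arrays, against 4.70, 4.95 and 4.68 in wild-type arrays. Every hypomorph array stood far above every wild-type array and the hypomorph arrays lay close together (SD 0.0042), a 5.25-fold rise (log2 change 2.39, SE 0.094, adjusted p = 0.000465 by limma). B3galnt2, which acts on the O-mannose glycan of alpha-dystroglycan, fell by 0.57, with 6.80, 6.56 and 6.67 in hypomorph arrays and 7.23, 7.42 and 7.09 in wild-type arrays (1.48-fold, adjusted p = 0.017). Its call was lost without hypomorph replicate 2 or 3 (highest adjusted p = 0.0724). The difference between both genes within an array, B3galnt1 minus B3galnt2, was 0.50 ± 0.12 in hypomorph arrays and -2.46 ± 0.06 in wild-type arrays (SD, n = 3 each). This pair was chosen for moving in opposite directions and is given without a test.

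Of the 7 beta-1,3 GlcNAc transferase genes 3 fell and 0 rose, where 8.47% of all genes fell. Of the 4 without a call 3 were dim. B3gnt5, which starts lacto-series glycolipids, was at 7.64, 8.05 and 7.72 in hypomorph arrays, against 8.17, 8.62 and 8.79 in wild-type arrays, and fell 1.65-fold (adjusted p = 0.0364 by limma). The groups did not overlap, but hypomorph replicate 2 and wild-type replicate 1 lay close to each other. B3gnt2, the main enzyme of poly-N-acetyllactosamine extension, fell 1.33-fold (8.27, 8.43 and 8.35 in hypomorph arrays, 8.59, 8.88 and 8.80 in wild-type arrays). B3gnt8, which extends the same chains on branched N-glycans, fell 1.27-fold (4.69, 4.47 and 4.60 in hypomorph arrays, 5.03, 4.84 and 4.92 in wild-type arrays). All 3 calls were lost without any 1 hypomorph array, without wild-type replicate 3 and without 1 other wild-type array, with highest adjusted p-values of 0.11 to 0.148.

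**Figure D2:**
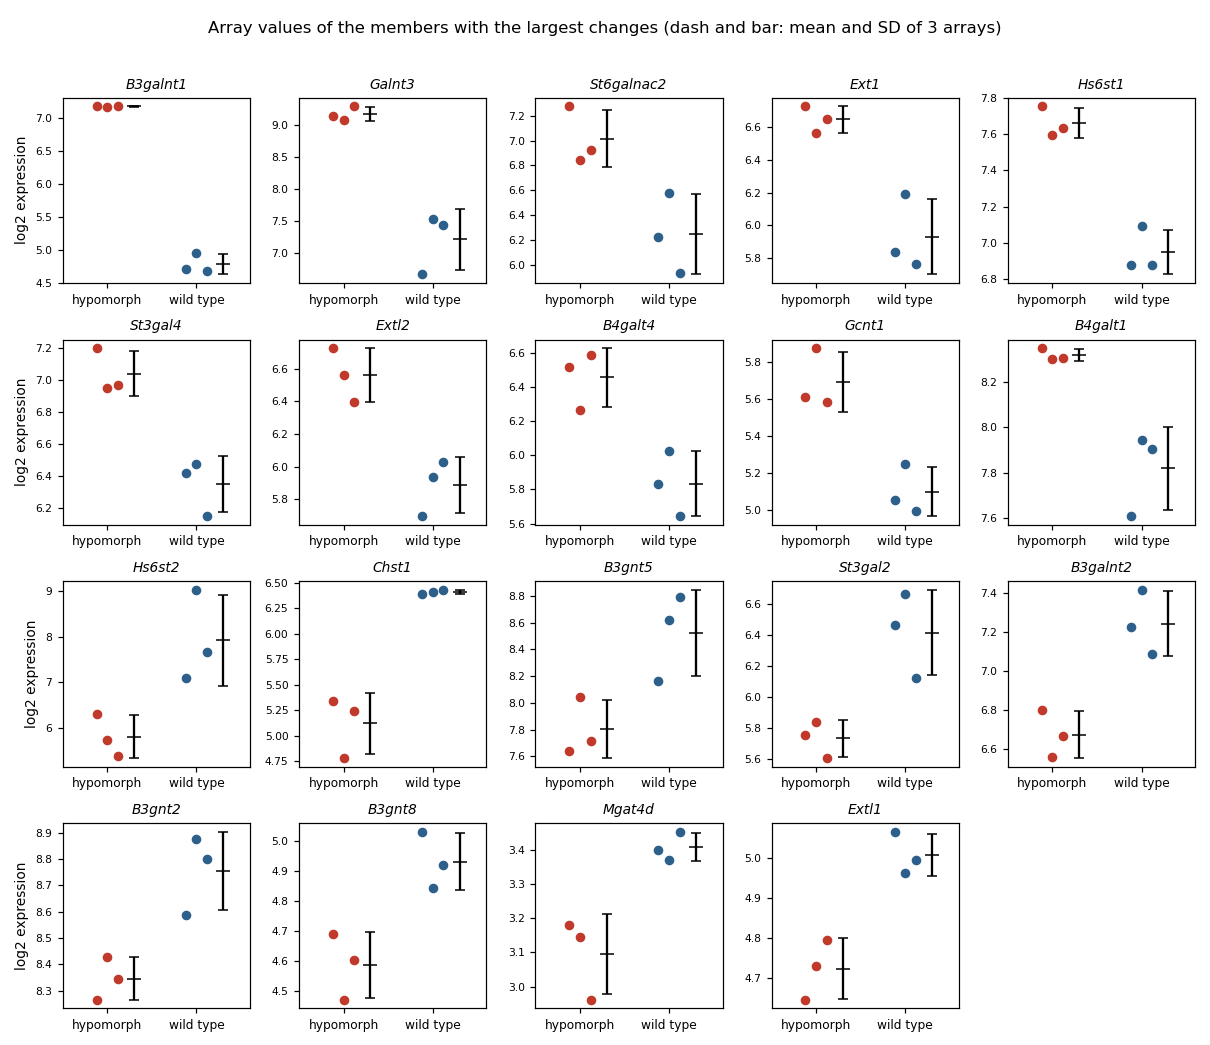
Log2 expression (y axis, scale differing between panels) in each of the 3 hypomorph arrays (red, left) and 3 wild-type arrays (blue, right) for the 10 risen and 9 fallen members of largest change. The black dash and bar give the mean and SD, and in none of the 19 panels do the groups overlap.

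Capping enzymes moved in both directions. Of 18 sialyltransferase genes 3 rose and 1 fell. St3gal4, which adds alpha-2,3-linked sialic acid and contributes to selectin ligands in mouse leukocytes, was at 7.20, 6.95 and 6.97 in hypomorph arrays and 6.42, 6.48 and 6.15 in wild-type arrays, a 1.61-fold rise (adjusted p = 0.0109 by limma). St3gal2, which sialylates the Gal-GalNAc end of gangliosides and O-glycans, fell 1.61-fold, with 5.75, 5.84 and 5.60 in hypomorph arrays and 6.46, 6.67 and 6.12 in wild-type arrays (adjusted p = 0.0225). The within-array difference St3gal4 minus St3gal2 was 1.31 ± 0.18 in hypomorph arrays and -0.07 ± 0.11 in wild-type arrays, again a pair chosen for its opposite directions. The call of St3gal2 was lost without any 1 hypomorph array or wild-type replicate 1 (highest adjusted p = 0.0897).

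St6galnac2 and St6galnac4, which add alpha-2,6-linked sialic acid to the GalNAc of O-glycans, rose 1.71-fold and 1.27-fold. St6galnac2 was at 7.28, 6.84 and 6.93 in hypomorph arrays, against 6.23, 6.58 and 5.93 in wild-type arrays, with wild-type replicate 2 nearest to the hypomorph arrays. St6galnac4 was at 7.01, 7.16 and 7.08 in hypomorph arrays and 6.79, 6.70 and 6.74 in wild-type arrays. Both calls were lost without any 1 hypomorph array or wild-type replicate 3, and also without wild-type replicate 1 for St6galnac2 and 2 for St6galnac4 (highest adjusted p = 0.1 and 0.103). St6gal1, which makes the alpha-2,6-sialylated N-glycans bound by CD22, was bright on all arrays, at 10.21 ± 0.00155 in hypomorph arrays and 10.18 ± 0.31 in wild-type arrays. It did not pass (adjusted p = 0.905), and the 95% interval of its change ran from -0.33 to 0.39. Among the 5 alpha-2,8-sialyltransferase genes none was called (limma; 1 had an unadjusted p under 0.05), and the smallest p was that of the GD3 synthase gene St8sia1 (5.80 ± 0.32 in hypomorph arrays, 5.39 ± 0.15 in wild-type arrays, adjusted p = 0.138). Of the 7 fucosyltransferase genes 4 were dim, and only Fut2, the secretor enzyme of alpha-1,2-fucose, was called. Fut2 was at 4.54, 4.65 and 4.55 in hypomorph arrays and 4.25, 4.34 and 4.30 in wild-type arrays. Its 1.21-fold rise (adjusted p = 0.0409) lost the call without any 1 of the 6 arrays (highest adjusted p = 0.152).

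Heparan sulfate enzymes counted 3 risen and 2 fallen among 15 genes. Ext1, which with EXT2 polymerizes the chain, was at 6.72, 6.56 and 6.65 in hypomorph arrays, against 5.84, 6.19 and 5.76 in wild-type arrays, and rose 1.64-fold (adjusted p = 0.0117 by limma). Its partner Ext2 was 0.16 higher and did not pass (adjusted p = 0.293). Extl2, an N-acetylhexosaminyltransferase that acts on the linkage region, rose 1.59-fold, with 6.73, 6.56 and 6.40 in hypomorph arrays and 5.70, 5.94 and 6.03 in wild-type arrays. Extl1, a GlcNAc transferase of the same family, fell 1.22-fold, with 4.64, 4.73 and 4.79 in hypomorph arrays and 5.06, 4.96 and 4.99 in wild-type arrays. The calls were lost without hypomorph replicate 1 or 3 for Ext1, without hypomorph replicate 1 or 2 for Extl2 and without any 1 of the 6 arrays for Extl1 (highest adjusted p = 0.0542, 0.0575 and 0.142).

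The 6-O-sulfotransferase genes moved in opposite directions. Hs6st1 was at 7.75, 7.59 and 7.63 in hypomorph arrays, against 6.88, 7.09 and 6.88 in wild-type arrays, a 1.64-fold rise (log2 change 0.71, SE 0.092, adjusted p = 0.00436 by limma). Hs6st2 was at 6.31, 5.73 and 5.38 in hypomorph arrays, against 7.08, 9.02 and 7.66 in wild-type arrays, a 4.33-fold fall (log2 change -2.12, SE 0.49, adjusted p = 0.028). Wild-type replicate 2 was the highest array, and the spread between wild-type arrays (SD 0.996) was the widest of all called members. Hs6st1 minus Hs6st2 was 1.85 ± 0.40 in hypomorph arrays and -0.97 ± 0.88 in wild-type arrays, a pair chosen for its opposite directions. Hs6st3, the third gene, was dim, with 3.19 in the hypomorph mean and 3.22 in the wild-type mean.

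Within each genotype, Hs6st2 followed the order of the summed linear signal of the stromal markers, which was 1556, 1211 and 1105 in hypomorph replicates 1, 2 and 3 and 2937, 7127 and 3509 in wild-type replicates 1, 2 and 3. Endothelial sums were 1161, 1024 and 1052 in the hypomorph and 1238, 2761 and 1391 in wild type. The part of these cells in the fall of Hs6st2 was not tested. Its call was lost without any 1 hypomorph array or wild-type replicate 3 (highest adjusted p = 0.0999), and also with trend and robust fitting (adjusted p = 0.0597), while its change lay between -2.53 and -1.56 over all 6 fits that leave out 1 array. Of the other sulfotransferases Hs3st1, which makes the antithrombin-binding site, had the largest difference without a call. It was at 7.71, 7.76 and 7.47 in hypomorph arrays and 5.73, 6.91 and 6.97 in wild-type arrays, a change of 1.11 with a 95% interval from 0.35 to 1.86 (adjusted p = 0.0543). The groups did not overlap, and wild-type replicate 1 stood well below the other arrays. Hs2st1, the 2-O-sulfotransferase, was 0.36 higher by its brightest probe set (adjusted p = 0.0608), and its other probe sets, neither of them dim, had differences of -0.060 and -0.27 and did not pass. The 3 NDST genes measured, for N-deacetylation and N-sulfation, did not pass, and the smallest p was that of Ndst3 (2.47 ± 0.03 in hypomorph arrays, 2.54 ± 0.01 in wild-type arrays, adjusted p = 0.524), a dim gene. Hs3st1 and Hs2st1 were named after their values were seen.

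**Figure D3:**
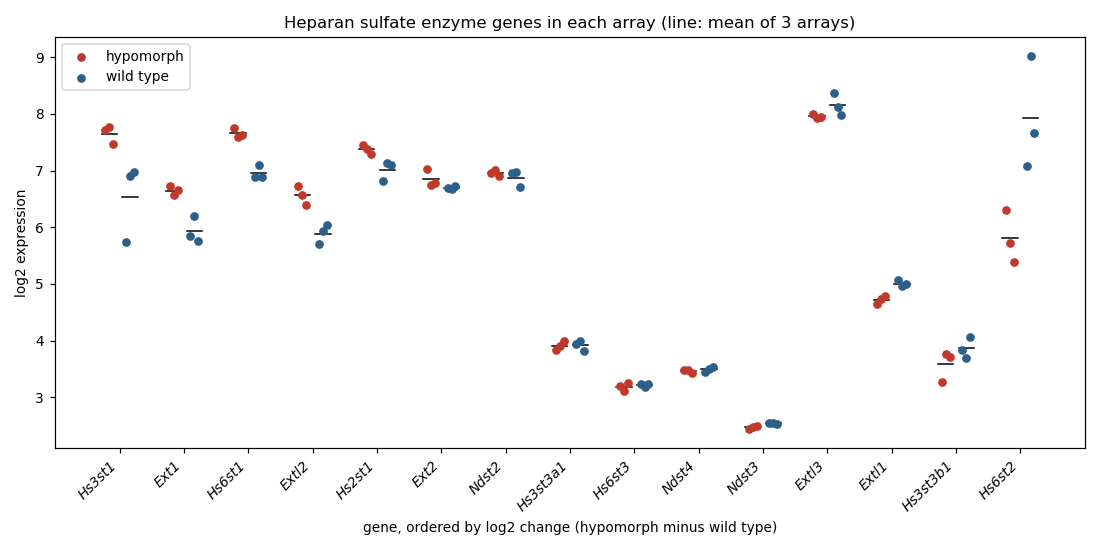
Log2 expression (y axis) of the 15 heparan sulfate enzyme genes (x axis, ordered by change) in hypomorph arrays (red, left of each gene) and wild-type arrays (blue, right), with lines at group means. Ext1, Hs6st1 and Extl2 stand higher in hypomorph arrays, as does Hs3st1, which was not called. Hs6st2 at the far right stands lower with a wide wild-type spread. Levels of different genes are not comparable.

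Of the 11 other carbohydrate sulfotransferase genes 0 rose, 1 fell and 10 were not called. Chst1, which sulfates the galactose of keratan sulfate, was at 5.34, 4.78 and 5.24 in hypomorph arrays, against 6.39, 6.41 and 6.43 in wild-type arrays. The wild-type arrays lay close together (SD 0.018) and all stood above every hypomorph array, and the gene fell 2.44-fold (log2 change -1.29, SE 0.15, adjusted p = 0.00283 by limma). This call held with any 1 array left out, with a highest adjusted p of 0.0163. The changes of the other 10 ran from -0.32 to 0.26, and 5 of the 11 genes were dim.

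Dim genes contributed few calls. Of the 33 members below the lower quartile of gene levels, 1 was called, or 3.03%, where 3.62% of all dim genes were called. Of the 61 brighter members 21 were called, or 34.4%, where 23.1% of all brighter genes were called. Wild-type arrays spread more widely than hypomorph arrays for 65 of the 94 members, with a median SD of 0.091 in the hypomorph and 0.15 in wild type, beside 0.089 and 0.142 over all genes. Of the 22 calls 12 were lost without each hypomorph array in turn, and no called member turned sign in a fit that leaves out 1 array.

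Other probe sets of the same genes give a measurement that the choice did not use, though on the same arrays. Of the 22 called members 11 had other probe sets, and for 3 of them, Galnt3, Extl2 and B3gnt2, another probe set passed in the same direction. The second probe set of Galnt3 changed by 0.77 (adjusted p = 0.0137, with p-values here adjusted over all 20379 single-gene probe sets, of which 17.7% passed) and the third had a difference of 0.31 (adjusted p = 0.349). The others of Hs6st2, both dim, had differences of -1.47 and -0.29 (adjusted p = 0.0689 and 0.257). Those of St3gal2 had differences of 0.35 and -0.097 (adjusted p = 0.165 and 0.582), and that of St6galnac2 one of -0.0041 (adjusted p = 0.984), where the first of St3gal2 and that of St6galnac2 were dim. Over all members 8 of 54 such probe sets passed.

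Some genes without a call moved by a probe set that did not stand for them. St8sia4 encodes a polysialyltransferase, which in mouse dendritic cells modifies the chemokine receptor CCR7. Its brighter probe set read 10.72, 10.75 and 10.80 in hypomorph arrays and 10.83, 10.71 and 10.86 in wild-type arrays, with overlapping groups and a change of -0.04 (95% interval -0.22 to 0.14). Its other probe set read 8.08, 7.90 and 7.92 in hypomorph arrays, against 5.94, 6.71 and 6.86 in wild-type arrays, a change of 1.46 (adjusted p = 0.00748 by limma). The annotation used here does not say which transcripts each probe set detects. Other probe sets also passed upward for B4galt7, which adds the first galactose of the proteoglycan linker (0.62), for the GM3 synthase gene St3gal5 (0.40) and, with 2 of them, for the lactosylceramide synthase gene B4galt6 (0.63 and 0.48). These genes are named after their values were seen.

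**Figure D4:**
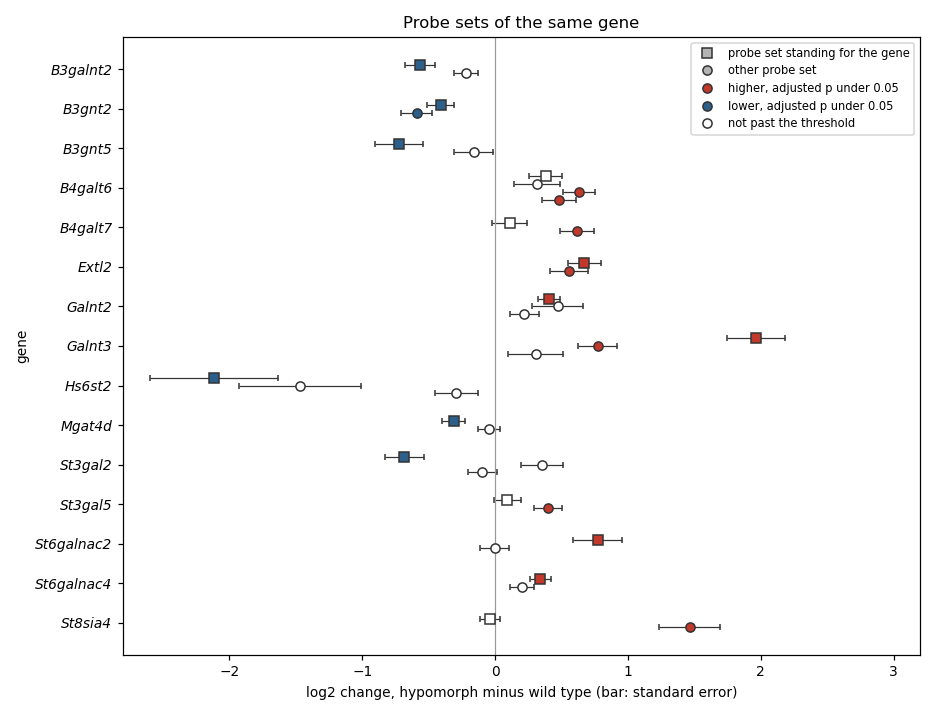
Log2 change with its standard error (x axis) of every single-gene probe set of 15 genes (y axis) that had several and of which at least 1 passed. Squares are the probe sets that stood for the gene and circles the others, red and blue fills mark an adjusted p under 0.05, and St8sia4 shows a square at -0.04 and a circle at 1.46.

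The substrates and partners of these enzymes were read from 10 lists with 144 genes measured of 180 listed. Of the 144 genes 28 rose and 9 fell, or 19.4% and 6.25%, where 9.76% and 8.47% of all genes did. These background shares are not matched for brightness, and no list held more than 4 dim genes. In either direction 23.1% of all genes at or above the lower quartile were called, and 3.62% of all dim genes. Donor synthesis had 3 of 16 genes higher and 0 lower, with a median change of 0.14. They were Ugp2, which makes UDP-glucose (1.68-fold), Galk2, a GalNAc kinase (1.46-fold), and Gfpt1, the entry enzyme of the hexosamine pathway (1.36-fold). Golgi transporters of these donors had 3 of 13 higher and 1 lower. The CMP-sialic acid transporter gene Slc35a1 rose 1.34-fold, Slc35b4 1.33-fold and Slc35a5 1.42-fold, while Slc35b3, a PAPS transporter gene, fell 1.26-fold. All these adjusted p-values lay between 0.0106 and 0.0397, and each call was lost without at least 1 hypomorph array.

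Glycosaminoglycan enzymes outside the members had 2 of 12 higher and 1 lower. Glce, the epimerase that turns glucuronic into iduronic acid in heparan sulfate, rose 1.43-fold (7.35 ± 0.05 in hypomorph arrays, 6.84 ± 0.13 in wild-type arrays, adjusted p = 0.012 by limma). Fam20b, the xylose kinase of the linker, rose 1.30-fold, and the chondroitin polymerizing factor gene Chpf fell 1.42-fold. Proteoglycan core proteins split, with 5 of 19 higher and 3 lower. Syndecan 3, encoded by Sdc3, rose 2.44-fold (9.65 ± 0.12 in hypomorph arrays, 8.37 ± 0.10 in wild-type arrays, adjusted p = 0.00129), Cd44 rose 1.84-fold and the glypican gene Gpc4 1.70-fold. The matrix proteoglycan genes Bgn, Dcn and Hspg2 fell 2.96-fold, 2.04-fold and 1.44-fold, and Dcn is also among the stromal markers that fell. Of the genes of this paragraph Sdc3, Cd44 and Gpc4 kept their calls with any 1 array left out; the others lost them without at least 1 hypomorph array.

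Among the other lists, N-glycan precursor and trimming genes had 4 of 20 higher and 0 lower. The Golgi mannosidase gene Man2a1 rose 1.67-fold (9.28 ± 0.10 in hypomorph arrays, 8.54 ± 0.16 in wild-type arrays, adjusted p = 0.00566 by limma) and the ER enzymes Alg5 and Alg9 rose 1.30-fold and 1.33-fold. O-glycan core enzymes and carriers had 2 of 11 higher and 0 lower, namely Cd164, a sialomucin (1.70-fold), and C1galt1c1, the chaperone Cosmc of core 1 synthase (1.27-fold). Of 18 COG complex and Golgi matrix genes 2 rose and 0 fell, Cog8 by 1.58-fold and Golph3, an adaptor that retains glycosyltransferases in the Golgi, by 1.38-fold. Glycolipid synthesis outside the members had 2 of 9 higher and 0 lower, the ceramide enzymes Cers2 (1.23-fold) and Sptlc1 (1.20-fold). Of 13 other glycosyltransferases 1 rose and 2 fell, Eogt by 1.44-fold upward, and Ogt, the nuclear and cytosolic O-GlcNAc transferase, and Mfng downward by 1.53-fold and 1.27-fold.

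Receptors that read these glycans had 4 of 13 members higher and 2 lower. The mannose receptor gene Mrc1 rose 5.04-fold, Siglece 1.77-fold and the galectin gene Lgals3 1.44-fold, and the B cell Siglec gene Cd22 and the galectin gene Lgals4 fell 1.67-fold and 1.42-fold. Mrc1 is also in the macrophage list and Cd22 in the B cell list given above. Of the genes named in this and the preceding paragraph, the calls of Man2a1, Cd164, Cog8, Mrc1, Siglece and Cd22 held with any 1 array left out, and the others were lost without at least 1 hypomorph array. These counts are given beside the background shares only, and whether a list differs from other genes was not tested.

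**Figure D5:**
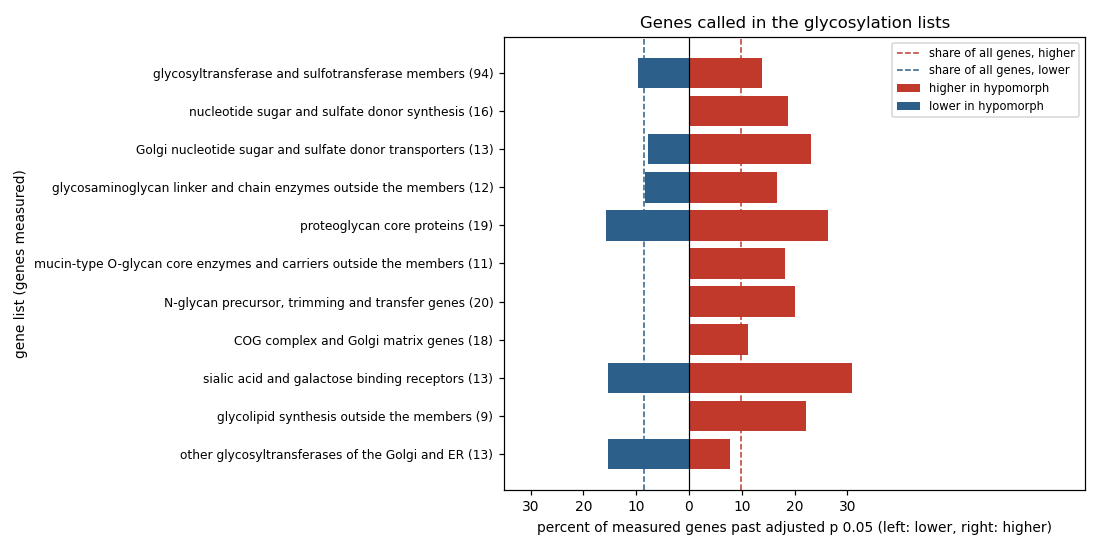
Percent of measured genes (x axis, right for higher and left for lower in the hypomorph) past an adjusted p of 0.05 in the 94 members and in the 10 related lists (y axis, genes measured in brackets). Dashed lines give the shares over all genes, 9.76% higher and 8.47% lower; proteoglycan core proteins have 5 of 19 higher and 3 lower.

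None of the 6 members on chromosome 1 lay within 50 genes of Atg16l1 in the RefSeq gene order. The nearest was St8sia4, 180 genes away, and Hs6st1 was 846 genes away.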

How the data were processed

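Expression was measured on 3 hypomorph and 3 wild-type Affymetrix arrays, grouped by their genotype labels. Affymetrix Power Tools made the values, per the submitters' processing notes, with version, background correction and summarization not given in the sources used here. What the authors deposited are log2 values of expression, 1 for each probe set on each array. Their log base is unstated and was taken from the range of values, on which fold changes depend. Precision is limited by the number of arrays.

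Of 22690 probe sets, 64 controls, 1 without values, 691 naming several genes and 1555 with none listed were left out. The other 20379 covered 12393 genes, named from the platform annotation. limma 3.58.1 (R 4.3.3) compared the genotypes by lmFit and eBayes, two-sided, with no covariate or filter and Benjamini-Hochberg adjustment over all genes; the script was tested on simulated data. Python 3.11.15 and matplotlib 3.10.9 made tables and plots.

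The members, lists, tests and alternatives were chosen with earlier results of these data known. Named genes are all called members, the member of smallest p in families without a call, the members nearest to the threshold on either side, and up to 3 genes of smallest p in each direction per related list. Hs3st1, Hs2st1, the pairs of opposite direction and the genes moved by other probe sets are marked where they appear. Gcnt2, Ext2, Hs6st3, Itgax and the Mgat genes without a call were named outside these rules, with their values known. Alternatives were array centring, quantile normalization, filters on dim genes, means of probe sets, trend and robust eBayes, array weights, a block for the replicate number, a spike-in covariate, testing against 1.5-fold, and omission of arrays.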

Additional observations from a re-analysis of the deposited data

How the results depend on the processing

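No called member turned sign under any alternative fit of its own probe set, and counts stayed within 1.5 times of 13 risen and 9 fallen members with array centring, quantile normalization, both dim filters, probe set means and array weights, and with trend and robust fitting (16 risen, 6 fallen). Leaving out 1 array gave 5 to 14 risen and 1 to 8 fallen members and medians of -0.064 to -0.016; without hypomorph replicate 1, 2 or 3 the counts were 5 and 2, 6 and 1, and 6 and 1, and without wild-type replicate 1 or 3 the fallen members were 5. A minimum change of 1.5-fold left 2 risen and 0 fallen by limma (2 fallen at an unadjusted p under 0.05). With the spike-in covariate 0 rose and 0 fell by limma (9 members or 9.57% at an unadjusted p under 0.05, where 9.27% of all genes passed), the median was -0.022, and of the 22 changes, none of which turned sign, 7 were smaller and 5 larger by over 1.5 times; the median gene's standard error grew 2.96 times. Atg16l1 was then -0.91 (adjusted p = 0.493), and its call was also lost against a minimum change of 1.5-fold (-1.04, adjusted p = 0.0845). Deviations from the group means correlated at 0.153, 0.011 and 0.106 for same-numbered arrays and at -0.173 to 0.138 for differently numbered ones. These values cannot tell whether same-numbered arrays were handled together. The replicate block gave 6 risen and 3 fallen members and ended 13 of the 22 calls, that of Hs6st2 among them (adjusted p = 0.0538 by limma). Of single calls, array centring ended 2 (B3gnt8, Extl1), quantile normalization 3 (these and Mgat4d), probe set means 3 (B3gnt5, Mgat4d, St3gal2) and trend and robust fitting 5 (B3gnt8, Extl1, Fut2, Hs6st2, Mgat4d). The members' median was 0.015 after quantile normalization, and 0.078 and 0.086 with the filters at the lower quartile and the median. In fits chosen after seeing the data that leave 1 wild-type array, assumed to vary like the others, 10 rose and 7 fell without the wild-type arrays whose titles differ (median 0.016), and 12 rose and 3 fell without those of highest spike-in signal (median -0.054). Other probe sets turned the sign for St3gal2 (0.35) and St6galnac2 (-0.0041). The causes were not tested.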
